A study of Mus musculus with 6 samples.

Results

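The transcripts described here come from 36 genes that encode p53 itself, its regulators and its classical targets, picked by symbol out of the 24453 gene symbols counted in each library. They were set in arms by what their products do: 7 act in cell cycle arrest, 15 in apoptosis, 4 in DNA repair, 4 in the feedback that sets p53 activity, and 6 in stress signalling and metabolism. The list was put together with the results of this very comparison known, so the fold changes of its members are a description. No p-value is printed for any of them. Their calls and their counts at a p threshold are given as part of that description.

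The cells came from back skins of mice at postnatal day 0 and were sorted as EpCAM+, Sca1+ and high in α6-integrin, a gate for the interfollicular epidermis. The 3 Eed cKO libraries carry the genotype label Eed-/- and were set against 3 libraries labelled Control. Eed is a core subunit of Polycomb repressive complex 2, which places a repressive methyl mark on histone H3. Neither the driver of the deletion nor the control alleles are given in the labels, and nothing there says that each library is 1 animal, so p-values measure the spread between libraries, which may be technical.

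Total counts ran from 20998149 to 27447679 in Eed cKO libraries and from 25481306 to 29998531 in control libraries. The targeted gene, Eed, had 37.0, 33.7 and 29.2 CPM (counts scaled to library size) in Eed cKO libraries 1, 2 and 3, against 45.1, 41.1 and 53.1 CPM in control libraries 1, 2 and 3. All Eed cKO values lay under all control values, but the gene was not called (log2 fold change -0.48 ± 0.19 SE, edgeR adjusted p 0.252). Summed over 8 basal keratinocyte genes, the level was 36856 to 46468 CPM in Eed cKO libraries and 42871 to 48101 CPM in control libraries, so the labelled cell type's markers were abundant in both groups.

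p53 is a transcription factor that is kept scarce by the ubiquitin ligase Mdm2 and is stabilised when DNA is damaged or cells are stressed. It then binds a DNA element in its target genes and raises transcripts that stop the cell cycle, trigger apoptosis, aid repair or, through Mdm2 itself, shut the response down again. Since p53 is controlled mainly as a protein, its own transcript says little about its activity. In epidermis p53 answers ultraviolet damage, and its relative p63 maintains the basal layer and shares some of its targets.

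In the counts, 6 of the 35 genes that could be tested were called higher in Eed cKO libraries, at an adjusted p under 0.05 in an edgeR fit over all 14700 genes tested. They were Ccng1, Plk2 and Sfn of the arrest arm, Phlda3 of the apoptosis arm, and Zmat3 and Ddit4l of the stress arm. Over all genes tested, 3.39% were called higher and 0.816% lower. Of the 36 genes 0 were called lower by edgeR, where 3 had an unadjusted p under 0.05 in that direction (6.24% of all genes did), DESeq2 called 1 (1.84% of all genes) and limma-voom 0 (0.823%). On the higher side 12 had an unadjusted p under 0.05 (8.63% of all genes), DESeq2 called 7 (5.20%) and limma-voom 6 (3.23%). The median log2 fold change was 0.31 over the 35 genes and -0.01 over all genes tested. Of the 35, 24 were positive, against 48.7% of all genes tested. Because the genes were chosen with these values known, the counts describe the list and nothing is read from their distance to the background.

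**Figure D1:**
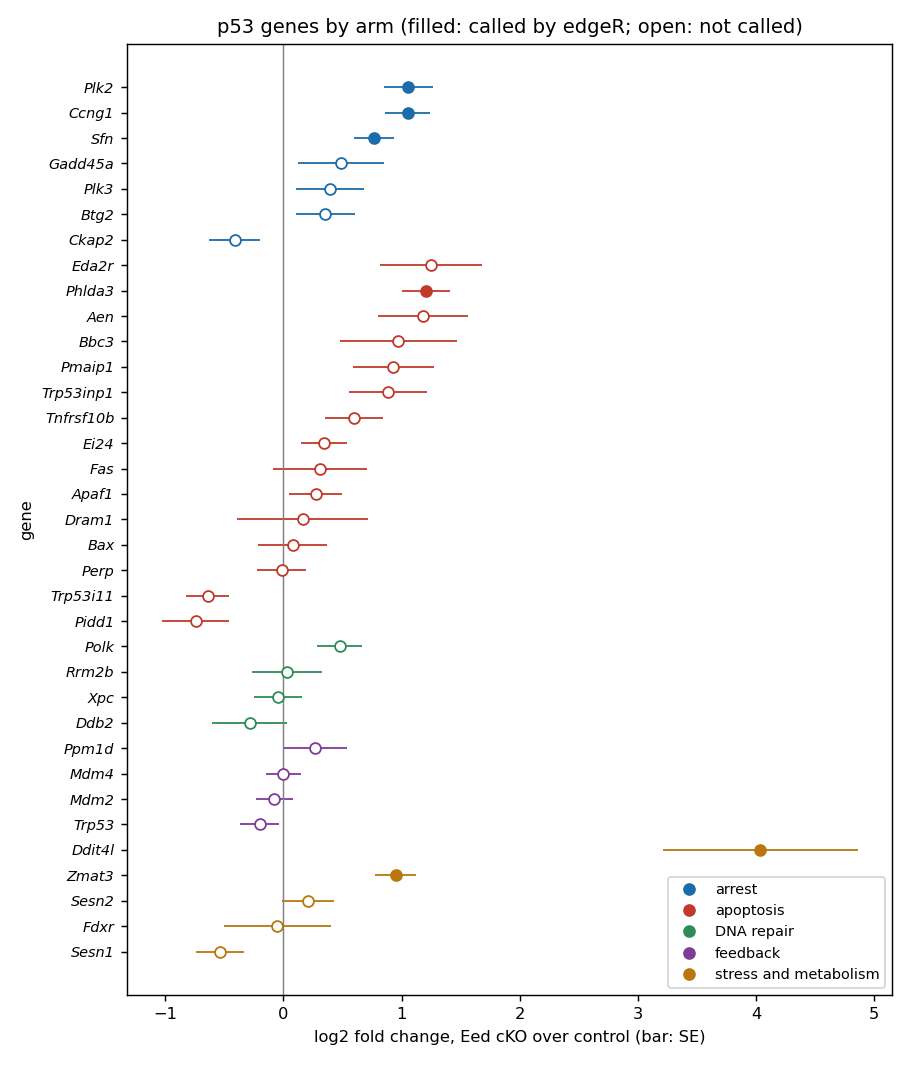
Log2 fold change of Eed cKO over control (x axis) with its SE for the 35 p53 genes tested, ordered by arm and then by size. Filled points are the 6 genes called higher. Ddit4l stands alone at 4.04, and the genes of the feedback arm lie between -0.20 and 0.27.

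The arrest arm held 3 genes called higher of 7, where 3.39% of all genes were. Ccng1 (chromosome 11, 40748552 to 40755311, GRCm38), encoding cyclin G1, which brings a phosphatase to Mdm2, had 196, 184 and 248 CPM in Eed cKO libraries 1, 2 and 3, against 78.5, 107 and 118 CPM in control libraries 1, 2 and 3. Every Eed cKO library was above every control library. The log2 fold change was 1.05 ± 0.19 (SE), and the call was made in all 6 fits that leave out 1 library.

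Ccng1 also carried the closest match to the p53 consensus element among the windows of the 36 genes. That element is a pair of 10-base repeats with up to 13 bases between them. It was searched by its p53 consensus in the RefSeq promoter window (GRCm38.p6, 250 bases before to 50 after the start), with the core C and G of each repeat required and at most 2 mismatches in all; the element reads alike on both strands. The Ccng1 match has 1 mismatch, no spacer, and begins at position -195 from the start. It is shown in capitals within the 250 bases upstream of the RefSeq start (chr11:40755287-40755536, minus strand), because it is the strongest match in a gene called higher. The GENCODE gene begins at 40755311, so the last bases of this stretch lie inside it.
Ccng1 upstream region: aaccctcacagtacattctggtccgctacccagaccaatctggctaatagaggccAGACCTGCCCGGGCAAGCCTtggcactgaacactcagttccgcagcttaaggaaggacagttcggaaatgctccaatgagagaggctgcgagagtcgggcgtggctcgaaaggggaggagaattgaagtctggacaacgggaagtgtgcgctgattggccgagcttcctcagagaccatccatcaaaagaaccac

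A window was listed for 28 of the 36 genes, and 5 of these 28 (17.9%) had such a match, against 526 of 11185 genes tested (4.7%). Counted by window the shares were 14.3% and 3.88%. Apart from Ccng1 the genes were Ckap2, Gadd45a, Bax and Sesn1, none of which was called. Their matches are printed for comparison with that of Ccng1, with the repeats in capitals and the spacer in lower case.
Ckap2: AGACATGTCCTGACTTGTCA
Gadd45a: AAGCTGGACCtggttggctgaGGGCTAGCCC
Bax: TGACAAGCATatcccAGGCAAGCTT
Sesn1: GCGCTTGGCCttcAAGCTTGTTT
The log2 fold changes of these 4 genes ran from -0.54 for Sesn1 to 0.49 for Gadd45a. Of the other called genes, Sfn and Ddit4l had a weaker match of 3 mismatches, printed here because both genes were higher.
Sfn: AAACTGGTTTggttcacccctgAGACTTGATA
Ddit4l: GGGCTTGCCTggGCCCCTGCCT
Plk2 and Phlda3 had no match of up to 3 mismatches in this window, and no window was listed for Zmat3. With 3 mismatches allowed, 46.4% of the 28 genes and 18% of all genes had a match, and with 1 allowed 3.57% and 0.662%. These are letters in a window and not shown binding.

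Plk2 (chromosome 13, 110395046 to 110400844), a polo-like kinase gene that acts in centriole duplication, had 41.2, 64.8 and 56.2 CPM in Eed cKO libraries 1, 2 and 3, against 25.1, 26.2 and 26.8 CPM in control libraries 1, 2 and 3. The groups did not overlap, and the control libraries lay close together. The log2 fold change was 1.05 ± 0.21 (SE), with the call lost without Eed cKO 2.

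Sfn (chromosome 4, 133600556 to 133602168) encodes 14-3-3 sigma, an epithelial protein that holds the mitotic kinase complex in the cytoplasm. It had 233, 199 and 164 CPM in Eed cKO libraries 1, 2 and 3, against 117, 118 and 115 CPM in control libraries 1, 2 and 3. The groups were again apart, with a log2 fold change of 0.77 ± 0.17 (SE). This was the least firm of the 6 calls, made in 2 of the 6 fits that leave out 1 library and lost without Eed cKO 1, Eed cKO 2, control 2 or control 3.

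The other 4 arrest genes were not called, and their groups overlapped. Btg2, an antiproliferative adaptor of mRNA decay, had 75.2, 49.8 and 51.3 CPM in Eed cKO libraries and 43.4, 32.3 and 62.3 CPM in control libraries (log2 fold change 0.35 ± 0.25). Gadd45a, which arrests cells before mitosis, had 8.93, 10.5 and 16.3 CPM in Eed cKO libraries and 5.20, 12.3 and 7.93 CPM in control libraries (0.49 ± 0.36). Of the exonic bases of Gadd45a 337, and of those of Plk3 84, lie opposite another gene's exons, so their counts are less certain. Plk3, a stress kinase gene, had a log2 fold change of 0.39 ± 0.29, and Ckap2, which encodes a spindle protein, was the only arrest gene on the negative side, at -0.41 ± 0.21.

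**Figure D2:**
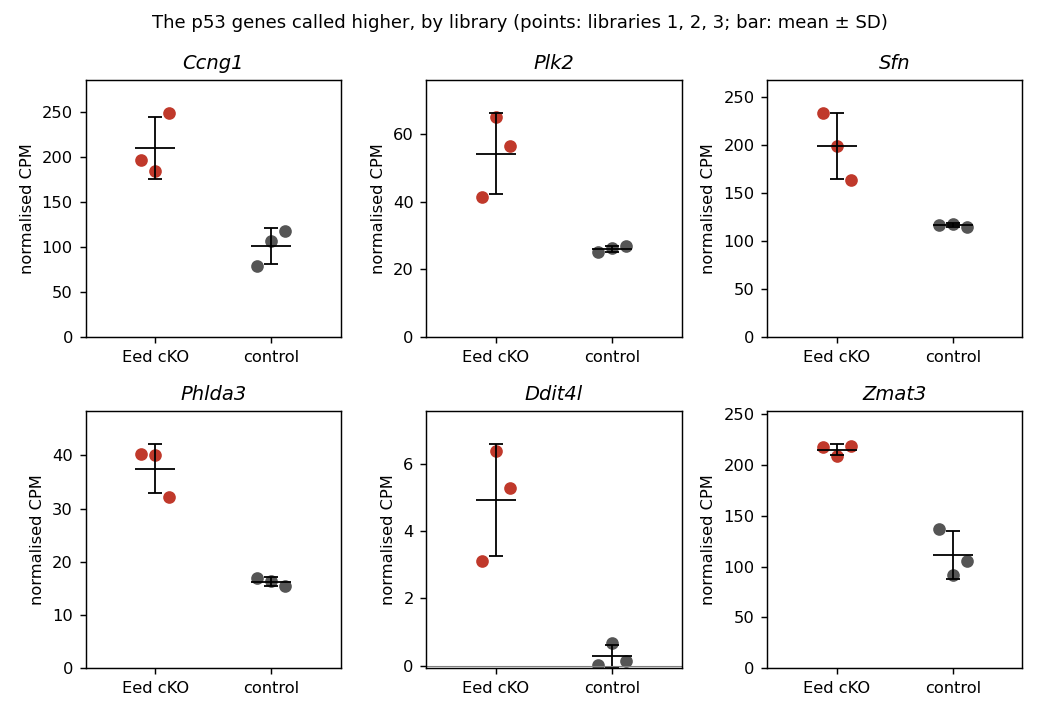
Normalised CPM (y axis, starting at 0, or just under it for Ddit4l) in each Eed cKO and control library for the 6 p53 genes called higher, with points for libraries 1, 2 and 3 from left to right and the mean ± SD in black. In each panel the lowest Eed cKO point is above the highest control point.

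In the apoptosis arm 1 of 15 genes was called higher and 0 lower by edgeR (3.39% and 0.816% of all genes), while 6 and 2 had an unadjusted p under 0.05 (8.63% and 6.24% of all genes). DESeq2 called 2 higher and 1 lower, against 5.20% and 1.84% of all genes, and limma-voom 1 and 0. The called gene was Phlda3 (chromosome 1, 135766119 to 135769136), which encodes a small lipid-binding protein that keeps the survival kinase Akt off the membrane. It had 40.3, 40.1 and 32.1 CPM in Eed cKO libraries 1, 2 and 3, against 17.0, 16.4 and 15.4 CPM in control libraries 1, 2 and 3. The groups were well apart, and the log2 fold change of 1.21 ± 0.20 (SE) was called in all 6 fits that leave out 1 library.

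A set of 4 further apoptosis genes had folds near that of Phlda3 but a wider spread, and none passed in the fit over all 14700 genes. Of the 14 alternatives, 2 called Aen, 1 Eda2r, 3 Pmaip1 and 2 Trp53inp1. Aen, a nuclease gene, had 12.4, 20.4 and 7.45 CPM in Eed cKO libraries against 6.62, 4.38 and 6.80 CPM in control libraries (log2 fold change 1.18 ± 0.38). Its Eed cKO values spread widely, though the lowest was still above the highest control value. It was called by DESeq2 and without a filter. Eda2r, an X-linked receptor gene for ectodysplasin A2, had 5.10, 11.0 and 14.9 CPM in Eed cKO libraries and 3.55, 3.32 and 6.13 CPM in control libraries (1.25 ± 0.43). Its groups overlapped through Eed cKO 1, without which it was called. Xist marks female cells: it was at 8.55 CPM in Eed cKO 2 and between 5297 and 7757 CPM in the other 5 libraries, so sex differs between the libraries for an X-linked gene, and its part in the result was not tested.

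Pmaip1, which encodes the BH3-only killer Noxa, had 22.3, 34.4 and 51.6 CPM in Eed cKO libraries and 11.9, 29.2 and 15.7 CPM in control libraries (log2 fold change 0.93 ± 0.34). Control 2 stood among the Eed cKO values, and without it Pmaip1 was called. Trp53inp1, a nuclear stress protein gene that promotes p53 activation, had 51.1, 73.7 and 117 CPM in Eed cKO libraries and 23.1, 47.9 and 59.8 CPM in control libraries (0.89 ± 0.33), and its groups overlapped through Eed cKO 1 and control 3. Without a filter on low counts both Pmaip1 and Trp53inp1 were called. They were highest in Eed cKO 3 and lowest in control 1.

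Further genes of direct killers and death receptors were not called. The fold of Bbc3 was as large as those of Pmaip1 and Trp53inp1, but its level was low. Bbc3, encoding the BH3-only protein Puma, had 5.76, 5.26 and 3.58 CPM in Eed cKO libraries and 2.84, 3.26 and 1.33 CPM in control libraries (log2 fold change 0.97 ± 0.50). Tnfrsf10b, a TRAIL receptor gene, had 29.6, 21.6 and 35.0 CPM in Eed cKO libraries and 21.1, 14.5 and 21.4 CPM in control libraries (0.60 ± 0.25). In both genes the groups did not overlap, but neither was called in any of the alternatives. Bax, whose product opens the mitochondrial membrane, had 12.1, 8.99 and 9.73 CPM in Eed cKO libraries and 10.4, 8.44 and 10.3 CPM in control libraries. Its log2 fold change was 0.08 (95% interval -0.55 to 0.70), and Bax shares 192 exonic bases with another gene on its strand.

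The death receptor gene Fas (log2 fold change 0.31 ± 0.40), the apoptosome gene Apaf1 (0.27 ± 0.22), and the autophagy genes Ei24 (0.34 ± 0.20, with 324 exonic bases opposite another gene) and Dram1 (0.16 ± 0.56) overlapped between the groups. Perp, a desmosomal protein gene that both p53 and p63 induce, was the most abundant of the 36 genes. It had 1856, 2189 and 1781 CPM in Eed cKO libraries and 1312, 2526 and 2056 CPM in control libraries. The Eed cKO range lay inside that of control, and the log2 fold change was -0.02 (95% interval -0.47 to 0.44).

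Lower values in Eed cKO libraries were seen in a pair of apoptosis genes. Trp53i11, named for its induction by p53, had 162, 111 and 130 CPM in Eed cKO libraries and 198, 242 and 187 CPM in control libraries. The groups were apart, and the log2 fold change of -0.64 ± 0.18 missed the threshold with all libraries. It was called in 5 of the 14 alternatives, among them DESeq2 (log2 fold change -0.63) and the edgeR fits without a filter (-0.64), without Eed cKO 1 (-0.80) and without both libraries numbered 1 (-0.83). Pidd1, a death-domain scaffold gene, had 17.6, 14.2 and 18.4 CPM in Eed cKO libraries and 42.0, 23.2 and 18.9 CPM in control libraries. Its distance rested largely on control 1, without which the log2 fold change was -0.33, against -0.74 with all libraries.

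**Figure D3:**
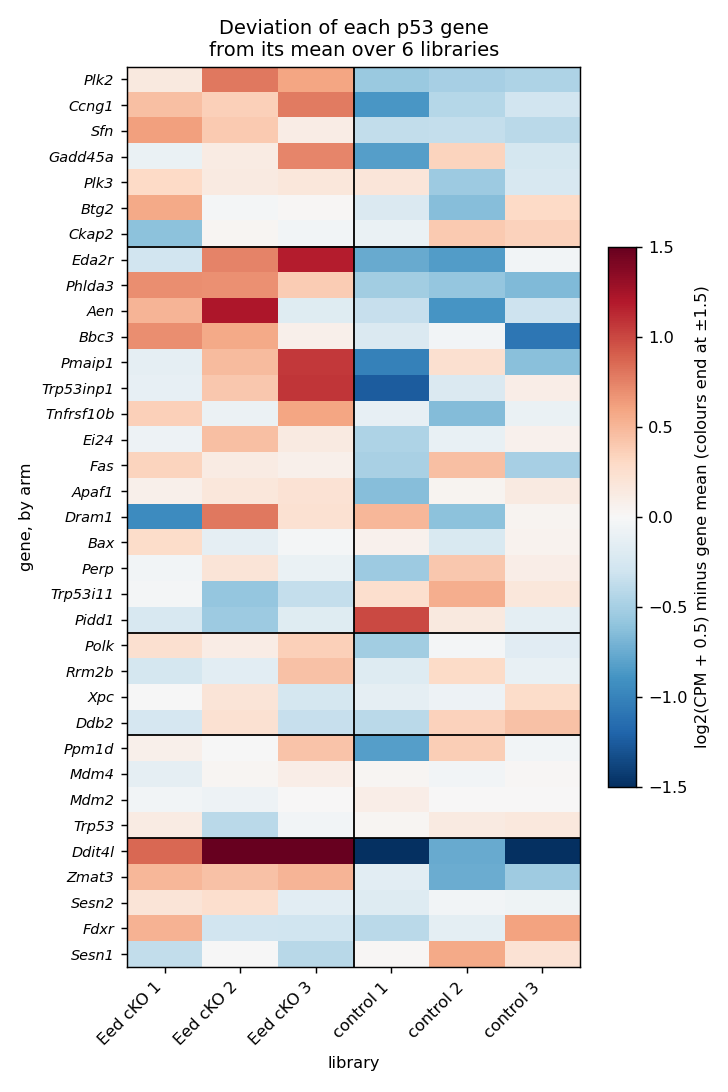
Deviation of each of the 35 p53 genes tested from its own mean over the 6 libraries, as log2(CPM + 0.5) (colour, ending at ±1.5), with genes by arm down the page and Eed cKO libraries left of control libraries. Ccng1, Plk2, Sfn, Phlda3, Zmat3 and Ddit4l change colour cleanly at the group border, while Mdm2 and Mdm4 are almost white in all libraries.

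In the feedback arm 0 of 4 genes were called in either direction by edgeR, DESeq2 or limma-voom. Over all genes edgeR called 3.39% higher and 0.816% lower, DESeq2 5.20% and 1.84%, and limma-voom 3.23% and 0.823%. In edgeR 0 of the 4 had an unadjusted p under 0.05, against 8.63% of all genes on the higher and 6.24% on the lower side. At such shares 0 of 4 genes says little about the arm. Mdm2, the p53 target whose product destroys p53, had 92.7, 90.1 and 95.6 CPM in Eed cKO libraries 1, 2 and 3, against 102, 95.6 and 95.7 CPM in control libraries 1, 2 and 3. The groups lay next to each other without overlap, at a log2 fold change of -0.08 (95% interval -0.41 to 0.26). Trp53 itself had 343, 238 and 308 CPM in Eed cKO libraries and 323, 347 and 352 CPM in control libraries, with a log2 fold change of -0.20 (95% interval -0.56 to 0.16). Pseudogenes of Trp53 and Mdm4 are annotated in mouse, so the counts of both genes are uncertain to that extent.

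Mdm4, the Mdm2 partner that masks the activation domain of p53, had 424, 476 and 501 CPM in Eed cKO libraries and 476, 452 and 473 CPM in control libraries. The means of 467 ± 39.3 and 467 ± 13.1 CPM (SD, n = 3 each) were alike, and the 95% interval of the log2 fold change was -0.32 to 0.32. Ppm1d, the phosphatase gene that ends the damage response, had 44.4, 42.0 and 56.9 CPM in Eed cKO libraries and 23.5, 54.6 and 40.7 CPM in control libraries. The groups overlapped, and the log2 fold change was 0.27 ± 0.27 (95% interval -0.30 to 0.84). It was -0.00073 without control 1 and 0.59 without control 2.

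Of the 4 DNA repair genes 0 were called in either direction by edgeR, DESeq2 or limma-voom. Over all genes edgeR called 3.39% higher and 0.816% lower, DESeq2 5.20% and 1.84%, and limma-voom 3.23% and 0.823%. At such shares 0 of 4 genes says little about the arm. In edgeR 0 had an unadjusted p under 0.05 on the lower side (6.24% of all genes) and 1 on the higher side (8.63%). That gene was Polk, a translesion polymerase gene, at 61.2, 56.0 and 66.3 CPM in Eed cKO libraries and 35.9, 50.6 and 45.6 CPM in control libraries (log2 fold change 0.47 ± 0.19), with the groups apart. Xpc and Ddb2, which recognise bulky lesions for excision repair, had log2 fold changes of -0.05 ± 0.20 and -0.29 ± 0.31. Rrm2b, the p53-induced ribonucleotide reductase subunit, had 9.62, 10.4 and 16.1 CPM in Eed cKO libraries and 10.1, 14.4 and 10.8 CPM in control libraries (0.03 ± 0.30). Exons of other genes lie opposite 652 bases of Ddb2 and 734 bases of Rrm2b.

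The stress and metabolism arm held the other 2 called genes, of 5 tested (3.39% of all genes were called higher). Zmat3 (chromosome 3, 32334792 to 32366014), a zinc-finger RNA-binding protein gene that regulates splicing, had 218, 209 and 219 CPM in Eed cKO libraries 1, 2 and 3, against 137, 91.4 and 106 CPM in control libraries 1, 2 and 3. The Eed cKO libraries were close together and all above control. The log2 fold change was 0.95 ± 0.18 (SE), called in all 6 fits that leave out 1 library.

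Ddit4l (chromosome 3, 137621612 to 137628333), encoding the growth inhibitor Redd2, which restrains the mTOR kinase, had the largest fold of the 35 genes and the lowest level of the 6 called ones. It had 3.10, 6.38 and 5.28 CPM in Eed cKO libraries 1, 2 and 3, against 0.037, 0.671 and 0.156 CPM in control libraries 1, 2 and 3, from 85, 159 and 109 counts against 1, 21 and 4. The groups were far apart, with a log2 fold change of 4.04 ± 0.82 (SE). Ddit4l passed the filter on low counts through its Eed cKO counts alone. Without a filter it was also called, at a log2 fold change of 4.03. The log2 fold change was 5.62 without control 2, which held most of the control counts, and 3.53 without control 1. The call was lost without Eed cKO 2 (log2 fold change 3.82) or Eed cKO 3 (3.99).

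Sesn1 and Sesn2 also restrain mTOR, but were not called. Sesn1 had 39.5, 50.6 and 38.0 CPM in Eed cKO libraries and 51.5, 75.8 and 59.2 CPM in control libraries, with the groups just apart (log2 fold change -0.54 ± 0.20). Sesn2 overlapped between the groups (0.21 ± 0.22), as did Fdxr, a mitochondrial electron carrier gene (-0.05 ± 0.45). Gdf15, a secreted stress hormone gene, was too low to be tested: it had 1, 0 and 0 counts in Eed cKO libraries and 34, 0 and 0 counts in control libraries.

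Across the 35 genes tested the groups did not overlap in 14, of which 10 were higher and 4 lower in Eed cKO libraries. Over all genes tested, 20.3% lay apart, 11.0% on the higher side and 9.22% on the lower side. Over the same 35 genes, the highest value lay in an Eed cKO library for 24 genes, and in Eed cKO 3 for 12 of these. The lowest value lay in a control library for 25 genes, and in control 1 for 14 of these. Eed cKO 3 and control 1 thus held many of the extremes of these genes, but such counts were not made over all genes tested. Leaving out both libraries numbered 1, an alternative chosen after seeing the data, gave a median log2 fold change of 0.12, against 0.31 with all, and 5 genes called higher and 1 lower (2.95% and 0.728% of all genes).

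Levels of different genes were compared as CPM per kilobase of annotated exon. Perp led in both groups, at 995 ± 111 in Eed cKO and 1006 ± 314 in control libraries (SD, n = 3 each). In Eed cKO libraries it was followed by Sfn (123 ± 21.4), Trp53 (73.3 ± 13.2), Ccng1 (59.6 ± 9.72), Trp53i11 (36.4 ± 7.08) and Mdm4 (31.6 ± 2.66). In control libraries the order was Trp53 (84.3 ± 3.75), Sfn (72.4 ± 1.11), Trp53i11 (56.7 ± 7.88), Mdm4 (31.6 ± 0.886) and Ccng1 (28.8 ± 5.75). Neighbours whose means differed by less than the larger of their SDs were Trp53i11 and Mdm4 in Eed cKO libraries, and Mdm4 and Ccng1 in control libraries.

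Beyond the 36 genes, a list of 42 other genes known as p53 targets was examined. This list and those that follow were also chosen with earlier results of these data known, so their counts are a description. Of the 41 tested, 4 rose in Eed cKO libraries and 0 fell, against 3.39% and 0.816% of all genes. In edgeR 9 had an unadjusted p under 0.05 on the higher and 1 on the lower side (8.63% and 6.24% of all genes). DESeq2 called 5 and 0 (5.20% and 1.84%), and limma-voom 4 and 0 (3.23% and 0.823%). The median log2 fold change was 0.26, with 28 of 41 positive, against 48.7% of all genes tested. The thiamine transporter gene Slc19a2 had 28.6, 26.3 and 30.4 CPM in Eed cKO libraries, against 8.45, 4.38 and 6.72 CPM in control libraries. The groups were far apart, at a log2 fold change of 2.13 ± 0.28 (SE), with an adjusted p of 0.000426 in edgeR. Ptp4a3, a membrane-bound phosphatase gene, had 29.3, 21.9 and 17.7 CPM in Eed cKO libraries, against 9.95, 7.32 and 6.91 CPM in control libraries (1.51 ± 0.28; edgeR adjusted p 0.00596). Both were called in all 6 fits that leave out 1 library.

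The other called genes of that list were less firm. Zfp365, a zinc-finger gene, stood at 1.39 ± 0.31 on the log2 scale (edgeR adjusted p 0.0192), lost without Eed cKO 2, Eed cKO 3 or control 3 (edgeR adjusted p up to 0.104). Tgfa, a ligand gene of the EGF receptor, stood at 1.20 ± 0.31 (edgeR adjusted p 0.0425), lost without any Eed cKO library, control 2 or control 3 (edgeR adjusted p up to 0.188). Cdkn1a, encoding p21, the main effector of p53 arrest, had 359, 183 and 226 CPM in Eed cKO libraries and 206, 134 and 183 CPM in control libraries. The groups overlapped and the gene was not called (0.55 ± 0.24; edgeR adjusted p 0.282). The p53 relative Trp73 was not called either (0.12 ± 0.19; edgeR adjusted p 0.868).

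**Figure D4:**
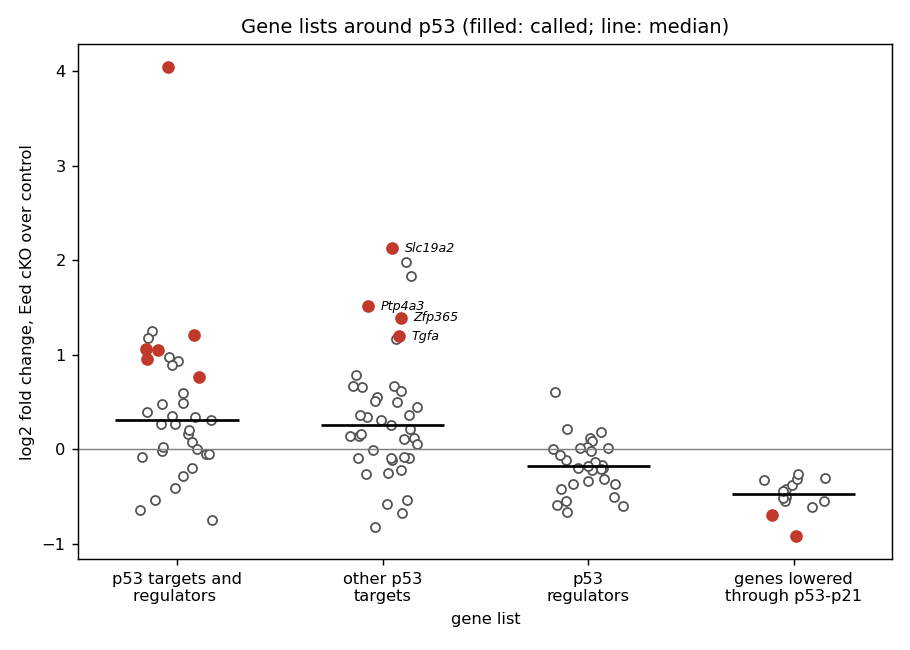
Log2 fold change of Eed cKO over control (y axis) for each tested gene of 4 lists: the 36 p53 targets and regulators, other p53 targets, other p53 regulators, and cell cycle genes that p53 lowers through p21. Filled points are called genes and lines are medians: 0.31 for p53 targets and regulators, 0.26 for other p53 targets and -0.47 for the cell cycle genes. Cdkn2a, which had no control count, is not drawn and is left out of the line for other regulators. Over all 30 other regulators the median was -0.17.

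Among 30 other regulators of p53 (kinases, acetylases, ligases and cofactors), 1 rose and 0 fell in edgeR (3.39% and 0.816% of all genes). On these sides 1 and 5 had an unadjusted p under 0.05 (8.63% and 6.24% of all genes). DESeq2 called 1 and 2 (5.20% and 1.84%), and limma-voom 1 and 0 (3.23% and 0.823%). The gene that rose was Cdkn2a (edgeR adjusted p 0.00883), whose product p19Arf shields p53 from Mdm2 and whose other product, p16Ink4a, inhibits cyclin D kinases; counts per gene do not separate them. It had 0.802, 2.69 and 1.11 CPM in Eed cKO libraries and no count in any control library. That is at least 42.8-fold higher, against a floor of 3 counts over the control group, from 112 counts over the Eed cKO group. Eed cKO 2 held 67 of the 112 counts. Without it the bound was at least 26.1-fold higher and the call was lost (edgeR adjusted p 0.0738). Trp63 had 1420, 1562 and 1750 CPM in Eed cKO libraries and 2100, 2009 and 1987 CPM in control libraries, with the groups apart but no call (log2 fold change -0.37 ± 0.15; edgeR adjusted p 0.266).

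Cell cycle genes that p53 lowers through p21 made a list of 14. In edgeR 0 rose and 2 fell (3.39% and 0.816% of all genes). All 14 log2 fold changes were negative (median -0.47), as were those of 7543 of all 14700 genes tested. On the higher and lower side 0 and 7 had an unadjusted p under 0.05 (8.63% and 6.24% of all genes). DESeq2 called 0 and 2 (5.20% and 1.84%), and limma-voom 0 and 2 (3.23% and 0.823%). Top2a, a topoisomerase gene, had 331 ± 84.8 CPM in Eed cKO and 625 ± 96.4 CPM in control libraries (SD, n = 3 each; edgeR adjusted p 0.0164), lost without Eed cKO 1, Eed cKO 3, control 2 or control 3. The mitotic factor Foxm1 had 108 ± 4.96 CPM in Eed cKO and 175 ± 11.3 CPM in control libraries (SD, n = 3 each; edgeR adjusted p 0.0187), lost without Eed cKO 2, Eed cKO 3 or any control library. The summed level of the list was 764 to 1086 CPM in Eed cKO libraries and 1199 to 1567 CPM in control libraries. In these bulk samples fewer cycling cells and less transcript per cell cannot be told apart. The list is named for a known route, and the part of p53 or p21 in these values was not tested.

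Further lists cover cell state and stress. The 10 suprabasal keratinocyte markers summed to 5389 to 8409 CPM in Eed cKO libraries and 3545 to 4663 CPM in control libraries, and 1 of the 10, the spinous keratin gene Krt10, rose (edgeR adjusted p 0.00126) while Krt1 did not pass (edgeR adjusted p 0.0711). Of the 10, 9 were positive (median log2 fold change 0.62), against 48.7% of all genes tested. On the higher side 6 had an unadjusted p under 0.05 (8.63% of all genes). EdgeR called 1 higher (3.39%), DESeq2 4 (5.20%) and limma-voom 1 (3.23%). Since Sfn and other p53 genes are also expressed in differentiating keratinocytes, this is given beside their values, and its part in them was not tested. Immediate early genes, which tissue dissociation induces, summed to 2157 to 3179 CPM in Eed cKO libraries and 1931 to 2713 CPM in control libraries, so the groups overlapped. Of these 14 genes 1 rose, where 3.39% of all genes did. It was Egr2 (log2 fold change 1.82, edgeR adjusted p 0.00448), while Myc did not pass (0.61, edgeR adjusted p 0.0917). Of 11 tested genes of the integrated stress response, which induces Sesn2 and Gdf15 without p53, 1 rose (3.39% of all genes did). It was the cystine carrier gene Slc7a11 (3.31, edgeR adjusted p 0.00730), lost without Eed cKO 3 (edgeR adjusted p 0.0703). Atf3 did not pass (-0.43, edgeR adjusted p 0.430).

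**Figure D5:**
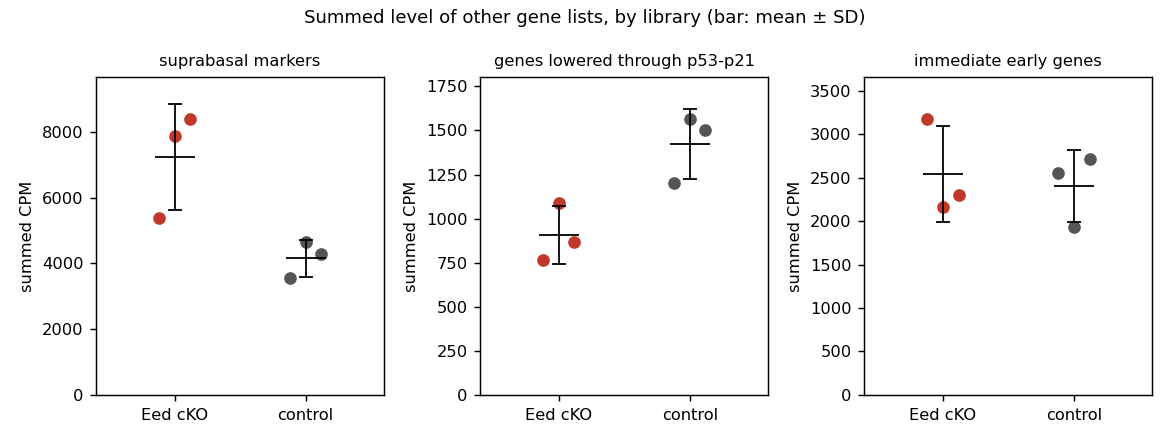
Summed CPM (y axis, from 0) of the suprabasal markers, the cell cycle genes that p53 lowers through p21 and the immediate early genes in each Eed cKO and control library, with points for libraries 1, 2 and 3 and the mean ± SD in black. The first list is higher and the second lower in all Eed cKO libraries, and the third overlaps.

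Markers of other cells were measured as well. The immune list summed to 58.4 to 348 CPM in Eed cKO libraries and 121 to 460 CPM in control libraries, and all 7 tested genes were on the lower side (median log2 fold change -0.93). Over all genes tested, 7543 of 14700 were on that side. Of these 7, 2 had an unadjusted p under 0.05 (6.24% of all genes on the lower side). DESeq2 called 1 lower (1.84%), and edgeR and limma-voom 0 (0.816% and 0.823%). Lyz2 (edgeR adjusted p 0.0503) and Fcer1g (edgeR adjusted p 0.309) were not called by edgeR. The melanocyte list summed to 12.6 to 22.6 CPM in Eed cKO libraries and 9.26 to 27.3 CPM in control libraries, with Pmel (edgeR adjusted p 0.318) and Sox10 (edgeR adjusted p 0.327) not called. Its sums overlapped, while 5 of its 6 tested genes were positive and 1 negative (median log2 fold change 0.82). The endothelial list summed to 5.46 to 32.8 CPM in Eed cKO libraries and 4.60 to 35.7 CPM in control libraries, with Kdr (edgeR adjusted p 0.59954) and Cdh5 (edgeR adjusted p 0.760) not called. Its 5 tested genes were 1 positive and 4 negative (median log2 fold change -0.61). The fibroblast list summed to 1435 to 1498 CPM in Eed cKO libraries and 1737 to 2459 CPM in control libraries, with Postn lower (log2 fold change -0.93; edgeR adjusted p 0.00495) and Dcn not called (0.61; edgeR adjusted p 0.278). Postn was the largest gene of this sum, with means of 866 CPM in Eed cKO and 1645 CPM in control libraries. The 7 tested genes had no common direction, with 3 positive and 4 negative (median log2 fold change -0.02). Merkel cell genes summed to 19.7 to 29.5 CPM in Eed cKO libraries and 9.35 to 11.2 CPM in control libraries. Of the 6 tested, 3 rose in edgeR, where 3.39% of all genes did. Isl1 and Sox2 had no count in any control library, which puts them at least 89.3-fold and 90.9-fold higher against the floor of 3 counts over the control group (edgeR adjusted p 0.00202 and 0.00452). Without Eed cKO 1, which held most of their counts, the bounds were at least 60.6-fold and 32.4-fold higher. In the hair follicle list 7 of 10 genes had groups apart, 3 higher and 4 lower in Eed cKO libraries. Over all genes tested 20.3% had groups apart, 11.0% higher and 9.22% lower. It summed to 1010 to 1162 CPM in Eed cKO libraries and 872 to 1260 CPM in control libraries, with Krt79 higher (2.88; edgeR adjusted p 5.74e-06) and Krt71 lower (-2.36; edgeR adjusted p 0.0495, lost without Eed cKO 2, Eed cKO 3, control 2 or control 3). Col17a1, of the basal list, was not called (-0.37; edgeR adjusted p 0.278). The part of these cells in the p53 genes' values was not tested.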

How the data were processed

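Raw counts per gene symbol were deposited by the authors, 1 file per library, with no normalization. Per the submitters' processing notes the tools were TopHat2 2.0.13, Cufflinks 2.2.1, HTSeq 0.6.1 and DESeq2 1.6.3, with mm10; the labels state neither annotation nor strand setting, so overlapping genes have uncertain counts. RNA was amplified before sequencing, per the labels, so reads are not independent molecules and the count floor covers counting error only.

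The count test was edgeR 4.0.16 (R 4.3.3), with filterByExpr (9753 of 24453 symbols removed), TMM scaling, a quasi-likelihood F-test on genotype and Benjamini-Hochberg adjustment over 14700 genes. Genes with few or no control counts (Ddit4l, Cdkn2a, Isl1 and Sox2) passed this filter through their Eed cKO counts alone. They were tested only because they were high in that group. CPM values are TMM-normalised. SEs were taken from the fold change and its F statistic, and intervals from them. The 36 genes, the lists and the tests were chosen with earlier results of these data known. Named were all 36 genes, Eed, called genes of the target and regulator lists with Cdkn1a, Cdkn2a, Trp63 and Trp73, and the 2 genes of smallest p in each other list. Results were recomputed with other scalings (RLE, upper quartile), without the filter or with 1 CPM in 3 libraries, with DESeq2 1.42.0 and limma-voom (limma 3.58.1), with a block for replicate number, and without each library in turn. Coordinates and exon lengths are from GENCODE M21, and promoters from RefSeq, since the planned wider window needs a genome that was not used here. On simulated data of this comparison, with 14700 genes, 46.0% of genes changed 2-fold and 6.00% of those changed 1.5-fold were called. No group of 4 or more libraries existed, so no test for a library far from the others was made.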

Additional observations from a re-analysis of the deposited data

How the results depend on the processing

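Of the 36 genes, 6 were called higher and 0 lower. The higher count was 6 with RLE scaling, upper-quartile scaling, the 1 CPM filter and limma-voom, 7 with DESeq2, 8 with the replicate block, which added Pmaip1 and Trp53inp1, and 9 without a filter on low counts, and ran from 3 to 6 on leaving out 1 library, with 3 without Eed cKO 2. The lower count was 1, Trp53i11, without a filter, with DESeq2 and with the replicate block, and ran from 0 to 1 on leaving out 1 library. The median log2 fold change ran from 0.20 to 0.37 on leaving out 1 library and was 0.12, with 1 gene called lower, without both libraries numbered 1. None of the 36 genes that was called under any of these settings changed sign under another. Other p53 targets gave 2 to 4 called higher on leaving out 1 library and 1 lower with the replicate block. Other regulators gave 0 to 1 higher on leaving out 1 library, 0 higher with the 1 CPM filter, which leaves Cdkn2a out, and 2 lower with DESeq2 and 1 with the replicate block. Over all genes, against 499 higher and 120 lower, DESeq2 called 764 and 270, no filter 737 and 257, and the replicate block 675 and 269; leaving out 1 library gave 302 to 456 higher and 35 to 118 lower. Except where stated, the cause was not tested. Deviations of same-numbered libraries correlated at 0.23, 0.11 and -0.0014 for numbers 1, 2 and 3, so the numbers are not treated as pairing, and not every library correlated best with its own number. RLE and upper-quartile scaling moved the median of all genes by less than 0.1 on the log2 scale. Low genes such as Bbc3, Aen, Fdxr and Dram1, had SEs of 0.38 to 0.56, too wide to show a change of 1.5-fold.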
